A study of Danio rerio with 6 samples.

Results

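The 10 genes described here are transcripts read as output and feedback of the RAS, RAF, MEK and ERK kinase cascade: the dual-specificity phosphatase genes dusp4, dusp5 and dusp6, the Sprouty family genes spry1, spry2, spry4 and spred1, and the Pea3 group ETS factor genes etv4, etv5a and etv5b. They were set by name out of 32520 genes counted in zebrafish skin cells, with earlier results of these data known. Each name matched exactly 1 gene ID. Mgat4b is an enzyme that branches N-linked glycans. The study reported that control fish of its melanoma model formed tumors, while fish with mgat4b targeted showed signs of melanocyte aggregation but no melanoma. It sequenced the cells to ask what keeps the targeted ones from starting tumors. The name mgat4b mutant melanoma used here follows the sample labels. The ERK output genes are compared below among the same groups.

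Bulk RNA-seq was made from density gradient fractions of the skin of 1-month-old Assam wild-type fish, in 3 groups of 2 libraries. The mgat4b mutant melanoma group carried the MAZERATI plasmids, which were injected into the early embryo. The mitfa promoter drove BRAF V600E in the melanocyte lineage. Cas9 was driven in the same lineage with guides against the tumor suppressor genes p53 and ptena/b, and with guides against mgat4b in addition. The control melanoma group carried the same BRAF V600E and Cas9 plasmids, with a control plasmid in place of the mgat4b guides. The wild-type melanophores came from stage-matched fish with no plasmid. Targeting of this kind is mosaic, and the fractions of both melanoma groups held transformed cells and melanocytes together. The series names 5 fish in all and does not divide them among the 6 libraries. With 5 fish the 6 libraries cannot each come from a separate fish. The p-values below therefore rest on the spread between libraries, which may be smaller than that between fish.

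Activated receptor tyrosine kinases load RAS with GTP. RAF then phosphorylates MEK and MEK phosphorylates ERK, so that ERK enters the nucleus and changes transcription. BRAF V600E, the common oncogenic form of BRAF in melanoma and nevi, signals to MEK without RAS. Among the transcripts that ERK raises are its own inhibitors: the DUSP enzymes remove phosphate from ERK, and the Sprouty and Spred proteins act upstream at the level of receptors, RAS and RAF. The Pea3 factors are DNA-binding activators whose transcripts are used as readouts of FGF and ERK signaling in zebrafish embryos.

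The libraries held 5225341 and 3538922 counts in mgat4b mutant melanoma, 8223044 and 8446997 in control melanoma and 7351705 and 7121087 in wild-type melanophores. The 2 mutant libraries were the shallowest and the least alike. Their median absolute log2 ratio between replicates was 0.47 over all genes, against 0.22 in control melanoma and 0.19 in wild type. The common coefficient of variation by edgeR was only 0.0787 for control melanoma with wild type. It was 0.231 for mutant with control melanoma and 0.211 for mutant melanoma with wild type. The mgat4b transcript itself stood at 20.2 and 15.4 CPM (read counts scaled to library size) in the mutant libraries, against 15.8 and 16.2 CPM in control melanoma (log2 fold change 0.17, SE 0.28, adjusted p = 0.717 by edgeR's quasi-likelihood test), so its level did not separate these groups. In wild-type melanophores it was 26 and 26.7 CPM. Transcript level alone does not report a small coding lesion, and lesions were not read from these counts.

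The cell type labels were set against marker lists. The 12 melanophore genes summed to 281 and 257 CPM in mutant melanoma, to 252 and 264 CPM in control melanoma and to 59.6 and 64.1 CPM in the libraries labelled wild-type melanophores; pmela, a melanosome matrix protein, averaged 86.9, 67.3 and 4.53 CPM in that order. The list named mitfa, which was matched to both copies under the symbol MITF, and the symbol does not tell which copy is mitfa. The copy of MITF on chromosome 23 ran the other way, averaging 0.75, 5.42 and 12.8 CPM in the same order. The MITF copy on chromosome 6 averaged 2.74, 2.23 and 2.15 CPM, and KIT 48.3, 38.7 and 33.2 CPM. None of the 12 was at 0 in both libraries of any group. The melanophore sum was thus lowest in the libraries labelled wild-type melanophores. That name is kept below as the label of the samples, and this list does not bear it out. The 10 keratinocyte genes summed to 15155 and 14776 CPM in mutant melanoma, 11442 and 11182 CPM in control melanoma and 17870 and 18375 CPM in wild type. Keratinocyte RNA was thus present in all 6 libraries, and in bulk samples of this kind fewer cells of a type and less RNA per cell cannot be told apart.

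By edgeR with all libraries kept, 1 of the 10 genes was called changed in mutant against control melanoma. Over all genes 5.86% were called higher and 6.68% lower there. In control melanoma against wild type 2 of the 10 were called, beside 19.9% of all genes called higher and 12.1% lower. In mutant melanoma against wild type 0 were called, beside 9.72% and 9.57%. The spry4 transcript fell in mutant melanoma relative to control melanoma, and etv5a and etv5b rose in control melanoma relative to wild-type melanophores. The dusp6 transcript, a standard readout of ERK, differed between the melanoma groups by less than its error and was below wild type in both, by less than the minimum fold. A gene is called changed below where the adjusted p is under 0.05 and the absolute log2 fold change is at least 1.

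**Figure D1:**
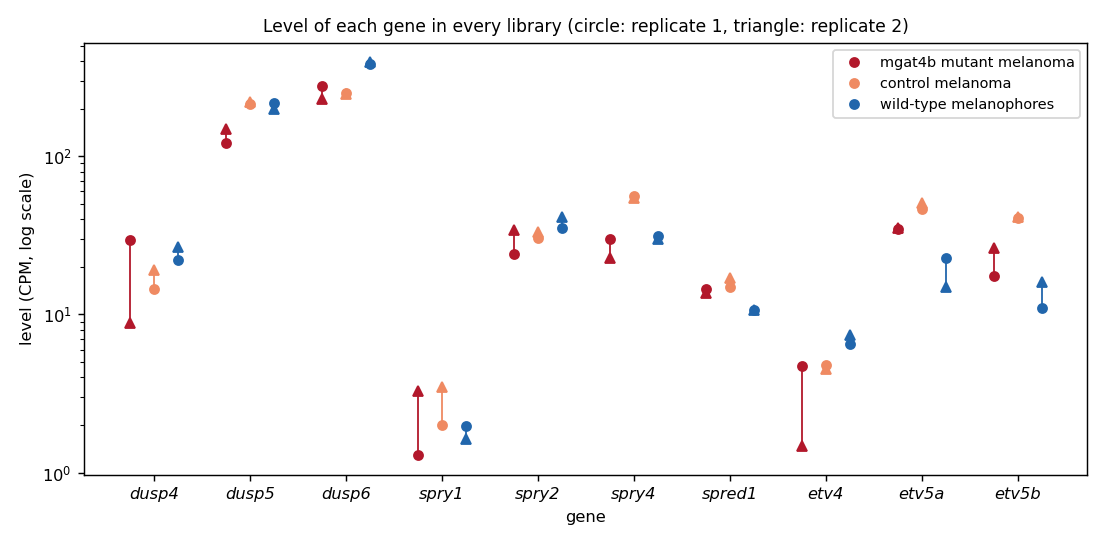
Level of the 10 genes in each of the 6 libraries, in CPM on a log axis; circles are replicate 1, triangles replicate 2, and a line joins the replicates of a group. The control melanoma libraries of spry4 (56.1 and 54.6 CPM) and etv5b (40.9 and 41.4 CPM) stood above all other libraries of those genes, while the mutant libraries of dusp4 and etv4 lay far apart.

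Set against each other per kilobase of exon, the DUSP transcripts dusp5 and dusp6 led in every group. In mutant melanoma dusp5 averaged 88.4 and dusp6 85.4 CPM per kb, and their libraries overlapped. In control melanoma dusp5 was at 143 and dusp6 at 84.1 CPM per kb, without overlap. In wild-type melanophores they were at 137 and 131 CPM per kb, with overlap. Their percentiles among the genes detected in each group were 97.5, 98.7 and 98.8 for dusp5 and 97.4, 97.9 and 98.7 for dusp6 in mutant melanoma, control melanoma and wild type.

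The other 8 genes were far lower per kilobase, and their order changed between groups. In mutant melanoma spry2 (12.7 CPM per kb), dusp4 (10.5) and etv5a (9.13) came next, each overlapping its neighbor in that order, followed by spry4 (7.66), etv5b (5.28) and spred1 (4.07). In control melanoma the third place was held by spry4, at 16.1 CPM per kb, followed by spry2 (13.8), etv5a (12.6), etv5b (9.99) and dusp4 (9.23), of which etv5b and dusp4 overlapped. In wild type the order after the leading pair was spry2 (16.6), dusp4 (13.5), spry4 (8.88) and etv5a (4.87), and etv4 (3.52), etv5b (3.28) and spred1 (3.1) overlapped. The lowest places were taken by spry1, at 1.81, 2.19 and 1.44 CPM per kb in mutant melanoma, control melanoma and wild type, and in both melanoma groups by etv4, at 1.57 and 2.37 CPM per kb, whose libraries overlapped those of spry1.

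In the comparison of mgat4b mutant with control melanoma, all 10 genes passed the filter on low counts. By edgeR 1 was called lower, beside 6.68% of all genes tested, and 0 were called higher, beside 5.86%. At an unadjusted p under 0.05, 0 were higher and 4 were lower. DESeq2 also called 0 of the 10 higher, beside 1176 of 26882 genes fitted. By the adjusted p alone, with no minimum fold, 3 were lower and 0 higher, beside 9.26% and 9.46% of all genes. The log2 fold change was above 0 for 2 of the 10 and below 0 for 8, and 48.8% of all genes were above 0. The median of the 10 was -0.37, beside -0.02 over all genes. The libraries of the 2 groups did not overlap for 5 of the 10, beside 61.6% of all genes tested.

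Control melanoma against wild-type melanophores gave 2 genes called higher and 0 called lower, beside 19.9% and 12.1% of all genes tested. At an unadjusted p under 0.05, 5 were higher and 2 were lower. DESeq2 called 0 of the 10 lower, beside 2069 of 28286 genes fitted. By adjusted p alone 4 were higher and 2 lower, beside 29.2% and 27.0%. The log2 fold change was above 0 for 6 of the 10 and below 0 for 4, and 49.6% of all genes were above 0. Over the 10 genes the median was 0.40 on the log2 scale, beside -0.01 over all genes. The groups did not overlap for 9 of 10, beside 78.0%.

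Mutant melanoma against wild-type melanophores gave 0 calls in either direction, both by edgeR and by DESeq2. Over all genes edgeR called 9.72% higher and 9.57% lower, and DESeq2 called 1452 higher and 1423 lower of 27482 genes fitted. At an unadjusted p under 0.05, 1 was higher and 2 were lower. The same counts held by adjusted p alone, beside 13.1% higher and 13.9% lower. The share of all genes at the unadjusted p was not taken in any comparison. The log2 fold change was above 0 for 4 of the 10 and below 0 for 6, and 48.9% of all genes were above 0. The median of the 10 was -0.23, beside -0.03 over all genes. The groups did not overlap for 8 of 10, beside 67.4%. In all 3 comparisons the counts were not tested against the shares of all genes, and they give no result about the 10 genes as a set. The 3 comparisons share libraries and are not independent of each other.

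**Figure D2:**
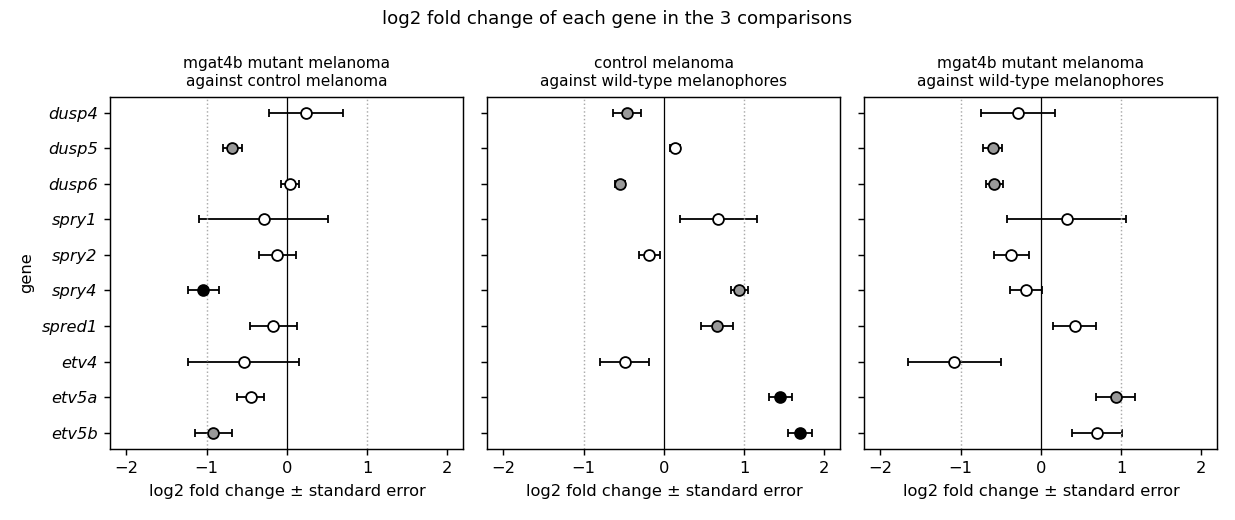
The log2 fold change of each gene with its standard error by edgeR in the 3 comparisons; black points were called, grey points passed the adjusted p only, white points passed neither, and dotted lines mark a log2 fold change of 1 in each direction. The called genes are spry4 in the left panel (-1.04) and etv5a (1.45) and etv5b (1.69) in the middle panel, and no point of the right panel is black.

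The first family is that of the dual-specificity phosphatases. The protein of dusp6 is a cytoplasmic phosphatase selective for ERK, encoded on chromosome 25 (18326298 to 18330503, minus strand, GRCz11). It was at 278 and 229 CPM in mutant melanoma, 251 and 248 CPM in control melanoma and 384 and 392 CPM in wild-type melanophores. The mutant libraries lay on either side of the control libraries, and all 4 melanoma libraries were below both wild-type libraries. Mutant over control melanoma gave a log2 fold change of 0.04 (SE 0.11, adjusted p = 0.847). Over wild type it was -0.58 in mutant melanoma (SE 0.11, adjusted p = 0.00944) and -0.55 in control melanoma (SE 0.06, adjusted p = 8.9e-12), both by edgeR and both short of the minimum fold.

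The phosphatase of dusp5 acts on ERK in the nucleus, and its gene lies on chromosome 22 (29911326 to 29922872, minus strand). It differed from dusp6 in which group stood apart. Its level was 121 and 148 CPM in mutant melanoma, 214 and 220 CPM in control melanoma and 216 and 200 CPM in wild type. Both mutant libraries were below the other 4, while control melanoma and wild type overlapped. The log2 fold change was -0.68 for mutant over control melanoma (SE 0.12, adjusted p = 0.006) and -0.60 for mutant over wild type (SE 0.12, adjusted p = 0.0135), and 0.14 for control melanoma over wild type (SE 0.06, adjusted p = 0.0534). None of these reached the minimum fold.

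In dusp4, a nuclear phosphatase of ERK encoded on chromosome 21 (20113470 to 20120543, minus strand), the spread between mutant libraries exceeded every difference between group means. It stood at 29.4 and 8.89 CPM in mutant melanoma, on 137 and 30 counts, against 14.4 and 19.1 CPM in control melanoma and 22.2 and 26.8 CPM in wild type. The ratio of the first mutant library to the second was 3.3, with a 95% exact binomial interval of 2.21 to 5.08 that covers counting error only. Mutant over control melanoma gave 0.24 on the log2 scale (SE 0.46, adjusted p = 0.775), and it ran between -0.92 and 0.82 when 1 library was left out. Over wild type it was -0.29 in mutant melanoma (SE 0.46, adjusted p = 0.677), but -1.46 with adjusted p = 4.6e-07 without mutant replicate 1, which would be a call. In control melanoma it was -0.46 (SE 0.17, adjusted p = 0.0162).

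Summed over the 3 DUSP genes, the level was 428 and 386 CPM in mutant melanoma, 480 and 487 CPM in control melanoma and 622 and 619 CPM in wild type. The 3 groups did not overlap in this sum. The makeup of the family also differed: per kilobase, dusp5 made up 42% and 54.2% of it in mutant melanoma, 60.3% and 60.5% in control melanoma and 50.1% and 47.3% in wild type. The share of dusp6 was 49.5% and 43% in mutant melanoma, 36.3% and 35.1% in control melanoma and 45.6% and 47.4% in wild type, lowest in control melanoma. Shares within a family depend on each other, so a higher share of dusp5 lowers that of dusp6 by itself.

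The Sprouty and Spred genes encode membrane-associated inhibitors of signaling between receptor and RAF. The transcript of spry4 (chromosome 21, 44684577 to 44691068, plus strand) fell in mutant melanoma. It was at 30 and 22.8 CPM in mutant melanoma, against 56.1 and 54.6 CPM in control melanoma, and at 31.1 and 30.1 CPM in wild type. The control melanoma libraries stood alone, and both mutant libraries lay below both wild-type libraries, the first of them by little. The log2 fold change was -1.04 for mutant over control melanoma (SE 0.19, adjusted p = 0.00571), a 2.05-fold lower level. It was 0.94 for control melanoma over wild type (SE 0.11, adjusted p = 8.2e-10), just under the minimum fold, and -0.18 for mutant over wild type (SE 0.20, adjusted p = 0.556). The call lies at the edge of the fold threshold: without mutant replicate 2 the log2 fold change was -0.87 with adjusted p = 3.2e-06, and with the coefficient of variation fixed at 0.4 it was -1.05 with adjusted p = 0.338.

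The other Sprouty genes did not change past the test. The spry2 transcript (chromosome 1, 5273481 to 5277583, plus strand), an inhibitor of receptor signaling whose founding member was described in the fly, was at 24 and 34.4 CPM in mutant melanoma, 30.5 and 33.1 CPM in control melanoma and 35.3 and 41.1 CPM in wild type. All 4 melanoma libraries were below the wild-type libraries, with log2 fold changes over wild type of -0.37 in mutant melanoma (SE 0.22, adjusted p = 0.249) and -0.18 in control melanoma (SE 0.13, adjusted p = 0.215). The spry1 transcript (chromosome 14, 497695 to 498979, minus strand) was counted only 6 and 11 times in mutant melanoma, 13 and 23 times in control melanoma and 20 and 16 times in wild type, and its log2 fold changes had wide errors, at -0.29 for mutant over control melanoma (SE 0.80, adjusted p = 0.846), 0.68 for control melanoma over wild type (SE 0.48, adjusted p = 0.229) and 0.32 for mutant over wild type (SE 0.74, adjusted p = 0.784).

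Spred1 is a Sprouty-related protein that brings neurofibromin to the membrane to switch RAS off. The spred1 transcript (chromosome 17, 52639492 to 52659119, minus strand) was at 14.4 and 13.6 CPM in mutant melanoma, 14.9 and 17 CPM in control melanoma and 10.7 CPM in both wild-type libraries. All melanoma libraries were above the wild-type ones. Over wild type the log2 fold change was 0.42 in mutant melanoma (SE 0.27, adjusted p = 0.287) and 0.66 in control melanoma (SE 0.20, adjusted p = 0.00456), and mutant over control melanoma it was -0.17 (SE 0.29, adjusted p = 0.738). Its exons share bases with angel1 on the opposite strand, and the strand setting of the counting is not given in the sources used here.

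Together the 4 genes summed to 69.7 and 74.1 CPM in mutant melanoma, 103 and 108 CPM in control melanoma and 79 and 83.6 CPM in wild type. Per kilobase, spry4 made up 35.7% and 23.5% of the family in mutant melanoma, 45.8% and 41.7% in control melanoma and 31% and 28.2% in wild type. The share of spry2 ran the other way in the melanoma groups, at 42.9% and 53.2% in mutant melanoma against 37.4% and 37.9% in control melanoma, and it was 52.9% and 57.6% in wild type. A lower share of spry4 raises the others by itself. The spry2 level gave a log2 fold change of -0.12 for mutant over control melanoma (SE 0.23, adjusted p = 0.774 by edgeR).

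The Pea3 group holds the transcription factors. The etv5b transcript (chromosome 6, 14030903 to 14040161, minus strand) showed the largest log2 fold change that was called among the 10 genes. It was at 17.4 and 26.1 CPM in mutant melanoma, 40.9 and 41.4 CPM in control melanoma and 11 and 16 CPM in wild-type melanophores. The groups were ordered without overlap, with control melanoma highest and wild type lowest. In control melanoma it rose 3.23-fold over wild type, a log2 fold change of 1.69 (SE 0.15, adjusted p = 1.2e-13), and this call held in every fit that left out 1 library, between 1.42 and 1.95. Mutant melanoma was lower than control melanoma by a log2 fold change of -0.92 (SE 0.23, adjusted p = 0.0249), short of the minimum fold; it was -1.23 with adjusted p = 2.9e-08 without mutant replicate 2, and -0.94 with adjusted p = 0.143 without control replicate 1. Mutant melanoma over wild type was 0.70 (SE 0.31, adjusted p = 0.142).

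Its paralog etv5a (chromosome 9, 22631672 to 22649297, plus strand) had the same order of groups. It was at 34.9 and 35.3 CPM in mutant melanoma, 46.5 and 50.7 CPM in control melanoma and 22.6 and 14.9 CPM in wild type, again without overlap. In control melanoma it rose 2.74-fold over wild type, a log2 fold change of 1.45 (SE 0.14, adjusted p = 1.5e-12), between 1.16 and 1.77 with 1 library left out. The wild-type libraries were the ones that differed, by a ratio of 1.52 with a counting interval of 1.23 to 1.88. Mutant over wild type was 0.93 (SE 0.24, adjusted p = 0.0306), and 1.24 with adjusted p = 0.0372, past the call, without wild-type replicate 1. Mutant over control melanoma was -0.45 (SE 0.17, adjusted p = 0.0933).

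The third member, etv4 (chromosome 12, 27536095 to 27568694, plus strand), was rarely counted and did not show the order of its paralogs. Its level was 4.72 and 1.48 CPM in mutant melanoma, on 22 and 5 counts, 4.8 and 4.55 CPM in control melanoma and 6.51 and 7.38 CPM in wild type. The wild-type libraries were the highest. Over wild type the log2 fold change was -1.08 in mutant melanoma (SE 0.58, adjusted p = 0.21) and -0.49 in control melanoma (SE 0.31, adjusted p = 0.172); without mutant replicate 1 the mutant value was -2.21 with adjusted p = 4.8e-04. Its exons overlap those of an antisense gene.

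Summed, the Pea3 genes were at 57 and 62.8 CPM in mutant melanoma, 92.2 and 96.6 CPM in control melanoma and 40.2 and 38.2 CPM in wild type, without overlap between groups. Per kilobase, etv4 made up 15.2% and 4.62% of the 3 in mutant melanoma and 9.95% and 9.03% in control melanoma, against 27.8% and 32.5% in wild type. The sum of the phosphatases was highest in wild type and that of the Pea3 factors lowest there.

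**Figure D3:**
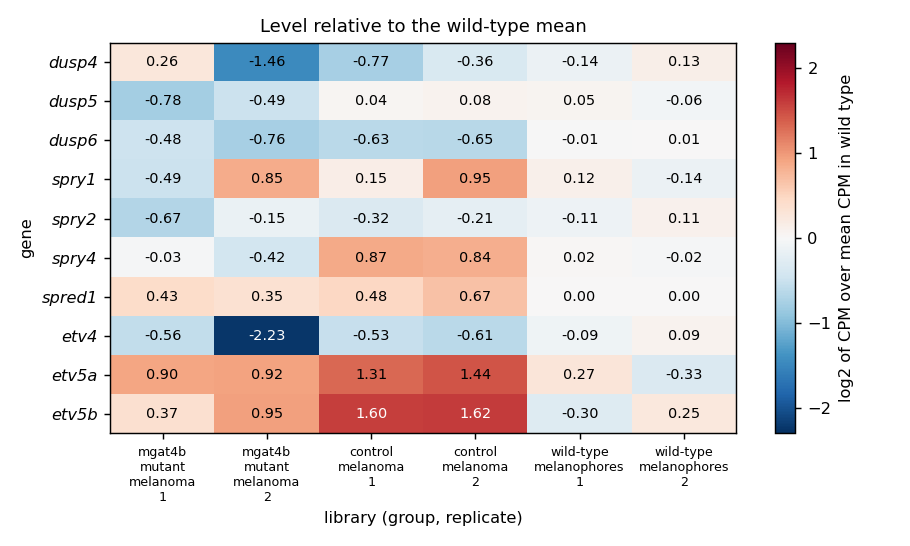
Each gene in each library as the log2 of its CPM over the mean CPM in wild type; red is above and blue below the wild-type mean. In control melanoma etv5b stood at 1.60 and 1.62 and dusp6 at -0.63 and -0.65, and the mutant columns differ most from each other in dusp4 and etv4.

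The group pattern of dusp6 was compared with that of the other genes by the root mean square difference of log2 CPM, each gene centered on its own mean, over the 6 libraries. Among the other 9 genes spry2 was nearest (0.282), followed by dusp5 (0.372) and dusp4 (0.433), and etv5a (0.887) and etv5b (0.962) were farthest. The 5 nearest of 8795 ranked genes were PIK3CB (0.0365), mical1 (0.0431), washc2c (0.0433), HECTD3 (0.0484) and HIVEP2 (0.05). PIK3CB, a catalytic subunit of phosphoinositide 3-kinase, averaged 60.4 CPM in mutant melanoma, 56.5 CPM in control melanoma and 91.5 CPM in wild type. These measures describe the 6 libraries and carry no test.

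The rest of the pathway was followed in 5 lists. Of the other phosphatases and feedback inhibitors, 14 of 17 genes were tested in each comparison. In mutant over control melanoma 1 (7.14%) was called lower and 0 higher, beside 6.68% and 5.86% of all genes, with a median of -0.14: DUSP8, a phosphatase of JNK and p38 kinases, was at 34.7 and 16.6 CPM in mutant melanoma against 63.8 and 56.1 CPM in control melanoma (-1.18, SE 0.28, adjusted p = 0.0204), and missed the fold at -0.77 without mutant replicate 2. In control melanoma over wild type 3 (21.4%) were called higher and 1 (7.14%) lower, beside 19.9% and 12.1%, with a median of 0.44. DUSP8 (1.19, SE 0.12, adjusted p = 3.3e-12) and SPRED2 (1.21, SE 0.18, adjusted p = 1.7e-07) were higher, and dusp2, a nuclear phosphatase of ERK, was lower (-1.11, SE 0.06, adjusted p = 1.0e-22). In mutant over wild type none of the 14 was called, beside 9.72% of all genes called higher and 9.57% lower, with a median of 0.01. The most abundant gene of the list, dusp1, averaged 785 CPM in mutant melanoma, 842 CPM in control melanoma and 812 CPM in wild type.

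Among the kinases and scaffolds of the cascade, of 30 tested in mutant over control melanoma, 1 (3.33%) was called lower and 0 higher, beside 6.68% and 5.86% of all genes, and the median was -0.00. It was gab1, a docking protein of receptors, at 21.9 and 14.8 CPM in mutant melanoma against 36.4 and 39 CPM in control melanoma (-1.01, SE 0.24, adjusted p = 0.0187); the call was lost without mutant replicate 2 (-0.77) or without either control library (adjusted p = 0.0909 and 0.163). In control melanoma over wild type 3 of 31 (9.68%) were called higher and 0 lower, beside 19.9% and 12.1%. They were lamtor3, a MEK scaffold at the lysosome (1.14), and copies of the adaptor GRB2 (1.37) and of HRAS (1.04), of which GRB2 and HRAS were not called by DESeq2 (adjusted p = 0.0767 and 0.158). In mutant over wild type 1 of 30 was called higher, lamtor3 (1.74, SE 0.27, adjusted p = 0.00437), and 2 lower, beside 9.72% and 9.57% of all genes: gab1 (-1.05) and a copy of the FGF receptor adaptor FRS2 (-2.31), whose call was lost without either wild-type library. The most abundant, kras, averaged 101, 99.1 and 105 CPM in mutant melanoma, control melanoma and wild type.

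Receptor tyrosine kinases were called higher in control melanoma over wild type in 13 of 31 cases (41.9%) and lower in 0, beside 19.9% and 12.1% of all genes, with a median of 0.74. The platelet-derived growth factor receptors were among them: pdgfra (1.39, SE 0.09, adjusted p = 2.6e-19) and pdgfrb (1.75, SE 0.11, adjusted p = 2.0e-19), with fgfr4, a fibroblast growth factor receptor (2.08, SE 0.16, adjusted p = 1.6e-15). In mutant over control melanoma 5 of 30 (16.7%) were called lower and 0 higher, beside 6.68% and 5.86% of all genes, with a median of -0.28. The pdgfra transcript was at 44.4 and 48 CPM in mutant melanoma against 136 and 123 CPM in control melanoma (-1.48, SE 0.13, adjusted p = 1.6e-04), and kdrl, a VEGF receptor of endothelium (-2.23, SE 0.31, adjusted p = 0.00165), and pdgfrb (-1.25, SE 0.21, adjusted p = 0.00389) were also lower. Of these receptors pdgfra is also on the fibroblast marker list, kdrl on the endothelial list and KIT on the melanophore list. In mutant over wild type 3 of 29 were called higher, among them fgfr4 (1.33), and 1 lower, mertka (-2.40), beside 9.72% and 9.57% of all genes. The most abundant receptor gene, fgfr3, averaged 116 CPM in mutant melanoma, 141 CPM in control melanoma and 81.8 CPM in wild type.

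Growth factor genes had 10 of 26 (38.5%) called higher and 2 (7.69%) lower in control melanoma over wild type, beside 19.9% and 12.1% of all genes. In mutant over control melanoma 0 of 22 were called higher and 2 (9.09%) lower, beside 5.86% and 6.68%, and in mutant over wild type 2 of 23 (8.7%) in each direction, beside 9.72% and 9.57%. In control melanoma over wild type a copy of PDGFA (2.03), pdgfbb (2.24) and igf2b (1.40) were higher, and the same copy of PDGFA was also higher in mutant over wild type (2.49), where nrg1 (-1.11) and kitlgb (-1.46) were lower. Both ligands that fell in mutant melanoma relative to control were insulin-like growth factors, igf2a (-1.90, SE 0.52, adjusted p = 0.0331) and igf2b (-1.44, SE 0.25, adjusted p = 0.00495). The calls were lost without control replicate 1, at adjusted p = 0.401 for igf2a and 0.0664 for igf2b. The most abundant ligand gene, hbegfa, averaged 79.3 CPM in mutant melanoma, 52.4 CPM in control melanoma and 67.2 CPM in wild type.

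Of the other factors and targets reported downstream of ERK, 0 of 31 were called higher and 6 lower in mutant melanoma over wild type, beside 9.72% and 9.57% of all genes, with a median of -0.47. In control melanoma over wild type 4 of 32 (12.5%) were called higher and 7 (21.9%) lower, beside 19.9% and 12.1% of all genes, with a median of -0.05. These shares were not tested against those of all genes. The immediate early gene ier2b was at 172 and 175 CPM in mutant melanoma, 181 and 193 CPM in control melanoma and 697 and 690 CPM in wild type. Its log2 fold change over wild type was -1.97 in mutant melanoma (SE 0.08, adjusted p = 1.9e-05) and -1.81 in control melanoma (SE 0.06, adjusted p = 1.0e-31). The phlda2 gene, a small pleckstrin homology protein, was lower over wild type by -1.41 and -1.74 in the same order. In mutant over control melanoma 1 of 31 (3.23%) was called lower and 0 higher, beside 6.68% and 5.86%: a copy of EPHA4 (-1.52, SE 0.38, adjusted p = 0.0248). FOSL1, an AP-1 factor and the most abundant gene of the list, averaged 457 CPM in mutant melanoma, 610 CPM in control melanoma and 560 CPM in wild type.

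**Figure D4:**
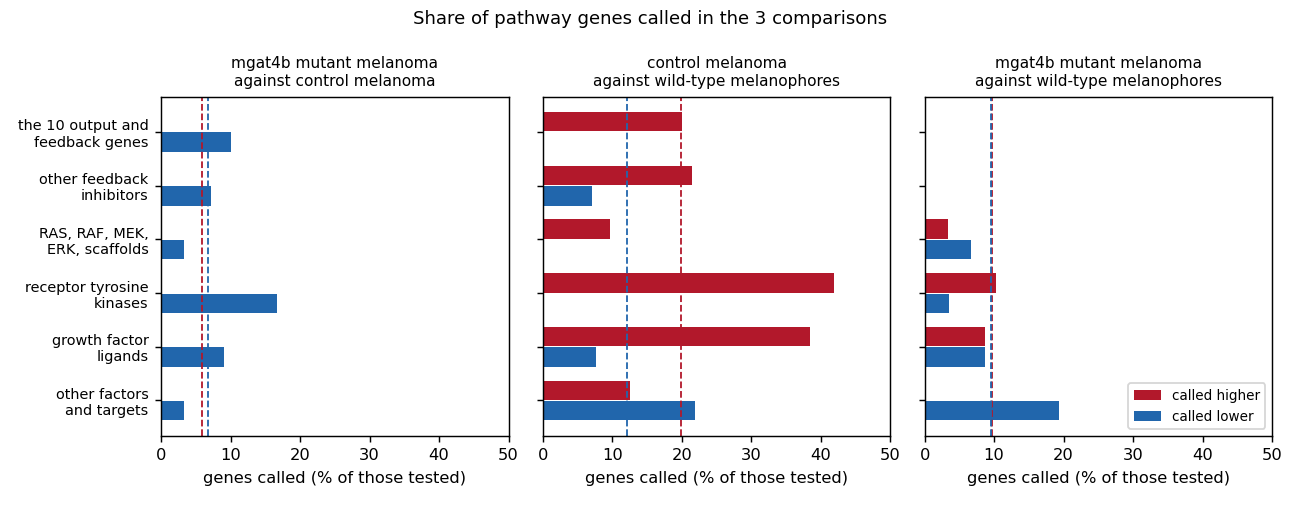
Percent of tested genes called higher (red) and lower (blue) by edgeR for the 10 output and feedback genes and 5 further pathway lists in the 3 comparisons; dashed lines give the percent called over all genes tested, in the same colors. The longest bars are those of receptors (41.9%) and ligands (38.5%) called higher in control melanoma over wild type, where 19.9% of all genes were called higher.

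Markers of other cell types moved with these groups. The 10 fibroblast and scale genes summed to 8933 and 8692 CPM in mutant melanoma, 41720 and 42880 CPM in control melanoma and 3420 and 3076 CPM in wild type, the same order of groups as etv5a, etv5b and the Pea3 sum. Of these, 9 of 10 were called lower in mutant than in control melanoma, beside 6.68% of all genes. In control melanoma over wild type 10 of 10 were called higher, beside 19.9%. The 6 endothelial genes summed to 21.2 and 18.4 CPM, 67.1 and 63.7 CPM and 22.5 and 17.2 CPM in the same group order, with control melanoma alone at the top as for spry4. The 10 skeletal muscle genes summed to 697 and 626 CPM in mutant melanoma, 1219 and 1218 CPM in control melanoma and 55.9 and 54.9 CPM in wild type. The 5 erythrocyte genes summed to 1517 and 1440 CPM, 1668 and 1684 CPM and 945 and 924 CPM in that order. Both lists also had the group order of etv5a, etv5b and the Pea3 sum. The 7 leukocyte genes summed to 438 and 443 CPM in mutant melanoma and 593 and 632 CPM in control melanoma, against 2019 and 2023 CPM in wild type. In wild type cd74a averaged 1277 CPM of that sum. Over wild type 6 of the 7 were called lower and 1 higher in mutant melanoma, beside 9.57% and 9.72% of all genes. In control melanoma 5 were called lower and 1 higher, beside 12.1% and 19.9%. The lyz transcript ran the other way, averaging 12.3, 11.4 and 3.22 CPM in mutant melanoma, control melanoma and wild type. The keratinocyte sum was likewise highest in wild type, at 17870 and 18375 CPM, but its genes were divided. In mutant melanoma over wild type 5 of the 10 keratinocyte genes had a log2 fold change above 0. There 0 were called higher and 3 lower, beside 9.72% and 9.57% of all genes. In control melanoma over wild type 1 of the 10 was above 0. There 0 were called higher and 1 lower, beside 19.9% and 12.1%. Of the 10 output and feedback genes, dusp4, dusp6, spry2 and etv4 also had their highest mean in wild type. In both mutant libraries 1 copy of TNNT3 from the muscle list and 1 copy of SLC4A1 from the erythrocyte list were at 0. These copies had at most 2 counts in any library of the other groups. The melanophore genes gave 0 calls of 12 between mutant and control melanoma by edgeR, beside 5.86% of all genes called higher and 6.68% lower. In control melanoma over wild type 9 of 12 were called higher and 1 lower, beside 19.9% and 12.1% of all genes. In mutant melanoma over wild type 6 of 11 were called higher and 1 lower, beside 9.72% and 9.57%. The part of these cell types in the levels of the 10 genes was not tested.

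**Figure D5:**
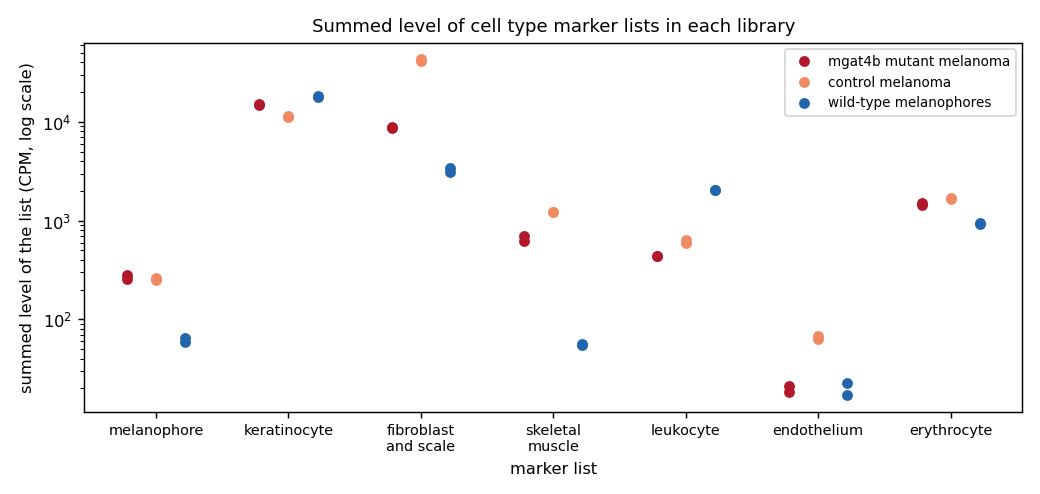
Summed level of 7 cell type marker lists in each library, in CPM on a log axis, with 2 points a group. The fibroblast and scale sum was 41720 and 42880 CPM in control melanoma, above both other groups, and the melanophore sum of wild type (59.6 and 64.1 CPM) lay below those of both melanoma groups.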

How the data were processed

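Per the submitters' processing notes the authors used Trimmomatic for trimming, STAR for alignment against GRCz11 and featureCounts for counting. Each deposited column holds unnormalized gene counts of 1 library. Annotation release, strand setting and treatment of multimapping reads are not given in the sources used here. Total RNA depleted of ribosomal RNA was sequenced. Of the 32520 gene IDs 29201 had a symbol; lists were matched by name, and a name listed without its a or b suffix could bring in a paralog. The members and lists were chosen with earlier results of these data known.

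Each comparison was fitted on its own 4 libraries with edgeR 4.0.16 in R 4.3.3 (quasi-likelihood test, TMM scaling, filterByExpr at its count minimum of 10 and total minimum of 15), with Benjamini-Hochberg adjustment over all genes tested. The scripts were tested on simulated data. Standard errors were taken from the log2 fold change and its F value. CPM used TMM scaling over the 6 libraries, and CPM per kb divided it by the exon length in the deposited file. Named genes were all 10 members, mgat4b, the most abundant gene of each pathway list with up to 3 called genes of lowest p per comparison, and the 5 genes nearest dusp6 with a mean of at least 10 CPM; dusp8, spred2 and epha4 copies are given under the symbol of the name table. SPRED2 is the copy on chromosome 13. The chi-square per gene between replicates was 9.48 in mutant melanoma, 2.47 in control melanoma and 2.26 in wild type, so the counts of each pair differed. This value cannot tell whether the libraries of a pair shared fish or RNA. Alternatives were DESeq2 1.42.0, its size factors, library sizes that left out mitochondrial genes and the top 20 by abundance, other filters, a fixed coefficient of variation of 0.4, other fold minimums, all 6 libraries in one fit, a replicate block and leaving out each library; they were also run for the called pathway genes after seeing the data.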

Additional observations from a re-analysis of the deposited data

Results flagged for a closer look

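Effects over wild type differed between the 2 melanoma groups, by the test of mutant against control melanoma, for the 9 genes named as called in that comparison. Of the 10 output and feedback genes this was spry4. Its log2 fold change over wild type was -0.18 in mgat4b mutant melanoma (SE 0.20, adjusted p = 0.556 by edgeR) and 0.94 in control melanoma (adjusted p = 8.2e-10), and the difference between mutant and control melanoma was -1.04 (adjusted p = 0.00571). For the 8 pathway genes that difference was -1.18 for DUSP8, -1.01 for gab1, -1.48 for pdgfra, -2.23 for kdrl, -1.25 for pdgfrb, -1.90 for igf2a, -1.44 for igf2b and -1.52 for a copy of EPHA4. The genes were taken from the calls of mutant against control melanoma, so these differences restate those calls and are no further test. The comparisons share libraries. The fibroblast and scale sum, which includes pdgfra, was 8933 and 8692 CPM in mutant melanoma against 41720 and 42880 CPM in control melanoma, and its part in these differences was not tested.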

How the results depend on the processing

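Of 356 values of the 10 genes under the alternatives 349 kept their side of the threshold. Another 3 were lost as calls, 4 became calls and 0 reversed as calls. The sign of uncalled values was not always kept. With 1 library left out, mutant over control melanoma ran from -0.92 to 0.82 in dusp4 and from -0.13 to 0.17 in dusp6. DESeq2, its size factors, the other filters and all 6 libraries in one fit changed no call. Neither did the trimmed library sizes, but TMM scaling was run again after the trim, so that setting could move little. The genes trimmed held 47% and 43.8% of counts in mutant melanoma and 54.7% and 54.9% in control melanoma. In wild type they held 20.1% and 20.2%. With at least 10 counts in every library spry1 and etv4 dropped out of the comparisons with mutant melanoma. With the fixed coefficient of variation the count lower in mutant than in control melanoma went to 0 from 1, and the count of genes higher in control melanoma over wild type to 1 from 2 (etv5a 1.46, adjusted p = 0.0789 by edgeR's likelihood ratio test). With no minimum fold the counts were 3 lower in mutant than control melanoma, 4 higher and 2 lower in control melanoma than wild type, and 1 higher and 2 lower in mutant melanoma than wild type; with a minimum log2 fold change of 2 the first became 0 and the second 0. With 1 library left out, the count stayed at 0 higher and 1 lower in mutant against control melanoma (spry4 lost and etv5b gained without mutant replicate 2) and at 2 higher and 0 lower in control melanoma against wild type, and ran from 0 to 1 higher and 0 to 2 lower in mutant melanoma against wild type. A lone library is then assumed to vary like the other group, and over all genes the calls between mutant and control melanoma were 1951 higher and 3204 lower without mutant replicate 1, 2017 and 2965 without mutant replicate 2, 594 and 547 without control replicate 1 and 598 and 542 without control replicate 2, against 1035 and 1179 with all libraries. The replicate numbers did not pair the samples (correlations of same-numbered deviations 0.007, -0.011 and 0.007), and with the replicate number as a block the counts stayed at 1 lower in mutant against control melanoma and 2 higher in control melanoma against wild type, and 0 otherwise; among the called pathway genes HRAS (adjusted p = 0.072) and flt1 (0.154) lost their calls in that fit. Of 415 values of called pathway genes 64 were lost as calls and 0 reversed. Without the filter on low counts the median log2 fold change of all genes was -0.20 in mutant against control melanoma and -0.26 in mutant melanoma against wild type, and that of the 10 genes was -0.39 and -0.31. The spry1 and etv4 genes rested on 5 to 31 counts a library in the melanoma groups.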
